A study of Mus musculus with 24 samples.

Results

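The genes described here are the 10 that encode the mouse interleukin 4 (IL4) receptor chains, their Janus kinases, the transcription factor STAT6 and 4 feedback inhibitors of the SOCS family: Il4ra, Il13ra1, Il2rg, Jak1, Jak3, Stat6, Socs1, Socs2, Socs3 and Cish. They were taken by symbol from 2 deposited expression tables that each list 23309 gene models, and all 10 were found in both. The first table holds 12 RNA libraries of bone marrow-derived macrophages (BMDM), in 6 groups of 2 libraries labelled Tet2 knockout or wild type, all on the C57BL/6 strain. Marrow cells of both genotypes were grown for 7 days in medium with M-CSF and L929-conditioned medium, changed to DMEM with serum the night before, and harvested without IL4 (0 h) or after 10 or 24 h with IL4 at 20 ng/ml. The second table holds 8 libraries of tumour-associated macrophages (TAM), 4 from labelled knockout mice (LysMcre +/wt, Tet2 fl/fl) and 4 from wild type (LysMcre wt/wt, Tet2 fl/fl), so that both carry the floxed Tet2 alleles and the Cre is driven by a myeloid gene. These TAM were CD11b+F4/80+ cells sorted from subcutaneous YUMM1.7 melanomas of male C57BL/6J mice aged 6 to 8 weeks, 4 weeks after injection, with no IL4 given. The labels do not say how Tet2 was removed in the BMDM, nor whether a TAM library held 1 animal. The design text calls the BMDM libraries biological replicates, and for the TAM the p-values measure only the spread between these libraries. Levels are FPKM, fragments per kilobase of gene model scaled to the mapped fragments of the library, so the number of reads behind a value is unknown. The TAM table does not name its unit and was taken as FPKM from the quantification tool in the processing notes.

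IL4 binds the IL4 receptor alpha chain (Il4ra), which then pairs with the common gamma chain (Il2rg) or with the IL13 receptor alpha chain (Il13ra1). The pair with the gamma chain binds IL4 only, and the pair with the IL13 receptor chain binds IL4 and IL13. JAK1 sits on the alpha chain and JAK3 on the gamma chain, and the activated kinases phosphorylate the alpha chain, where STAT6 docks, is phosphorylated and moves to the nucleus. STAT6 then drives the genes of alternative activation in macrophages. SOCS1, SOCS2, SOCS3 and CIS (Cish) carry an SH2 domain that binds phosphorylated tyrosines and a SOCS box that recruits a ubiquitin ligase, and they are induced by cytokine signals that they restrain.

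The promoters of Socs1, Socs3 and Cish are shown because Socs1 and Cish both rose under IL4 and Socs3 did not, as described further on. STAT dimers bind TTCNNNGAA, and STAT6 also TTCNNNNGAA. Both motifs are palindromes, so a match on 1 strand is a match on both, and no match found overlapped another. In RefSeq windows of 300 bases (GRCm38.p6, 250 bases before to 50 after each gene's start, read on the gene's strand), which exist for 9 of the 10 genes, TTCNNNGAA was found in 2 and TTCNNNNGAA in 0. Of 32851 windows of this length in the same table, 8.3% held TTCNNNGAA, 6.95% held TTCNNNNGAA, and 0.457% held TTCNNNGAA at 2 or more places. The window of Cish, chr9:107296409-107296708 on the plus strand, holds TTCNNNGAA at bases 251 to 259 and 262 to 270. Both lie in the 50 bases after the gene's start. The window of Socs3, chr11:117969317-117969616 on the minus strand, holds the motif at bases 97 to 105, before the start. Socs1, chr16:10785487-10785786 on the minus strand, has neither motif in this window. Capitals mark the motif. A match is a match of letters and not a shown binding site, and the coordinates are not those of mm9, the build of the expression tables.
Cish: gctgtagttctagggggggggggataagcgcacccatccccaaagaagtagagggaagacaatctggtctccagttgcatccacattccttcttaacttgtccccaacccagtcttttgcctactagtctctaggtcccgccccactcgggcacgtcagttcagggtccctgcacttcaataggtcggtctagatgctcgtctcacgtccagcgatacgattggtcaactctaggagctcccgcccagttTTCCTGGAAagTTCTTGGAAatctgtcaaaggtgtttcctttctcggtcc
Socs3: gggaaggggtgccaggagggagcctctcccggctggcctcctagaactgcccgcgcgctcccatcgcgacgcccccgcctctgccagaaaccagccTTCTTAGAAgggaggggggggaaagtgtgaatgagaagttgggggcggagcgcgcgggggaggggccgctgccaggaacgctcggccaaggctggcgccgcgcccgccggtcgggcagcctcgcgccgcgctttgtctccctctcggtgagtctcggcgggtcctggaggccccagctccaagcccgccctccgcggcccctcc
Socs1: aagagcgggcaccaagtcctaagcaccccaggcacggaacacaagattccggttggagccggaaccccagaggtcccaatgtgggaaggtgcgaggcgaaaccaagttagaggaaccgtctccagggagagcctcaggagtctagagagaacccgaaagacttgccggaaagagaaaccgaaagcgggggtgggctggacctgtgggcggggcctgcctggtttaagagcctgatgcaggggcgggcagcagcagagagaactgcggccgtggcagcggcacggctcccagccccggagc

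The libraries set these limits. Tet2 mRNA did not separate the genotypes in 1 direction: labelled knockout and wild-type BMDM had 4.02 to 4.48 against 4.11 to 5.91 FPKM at 0 h, 7.22 to 8.19 against 8.74 to 8.81 at 10 h and 10.3 to 11.3 against 9.38 to 9.82 at 24 h, and TAM had 14.4 to 19.0 against 7.75 to 16.1. The mutant groups are therefore called labelled knockout. All 10 macrophage markers reached 1 FPKM in every library of both tables, but their sum was not equal across groups. In BMDM it was 15328 to 16183 FPKM in labelled knockout against 15371 to 19748 in wild type at 0 h. It was 8061 to 8716 against 10249 to 10326 at 10 h, and 7365 to 7439 against 9810 to 11444 at 24 h. Labelled knockout TAM had 3630 to 6111 FPKM against 6468 to 8026 in wild type. The part of these sums in the results was not tested. Summed over 9 fibroblast markers, labelled knockout BMDM had 21.1 to 23.0 FPKM against 4.55 to 4.92 in wild type at 0 h, 19.6 to 20.5 against 4.33 to 5.00 at 10 h and 9.30 to 9.51 against 2.52 to 2.55 at 24 h. Only 3 or 4 of the 9 reached 1 FPKM in a labelled knockout BMDM library and 1 or 2 in a wild-type one, and 3 were tested. In TAM, wild-type library 8 stood apart, with a mean correlation of 0.864 to the other TAM libraries against 0.918 to 0.947 among those, and with 253 FPKM of fibroblast markers against 11.0 to 28.9 in the other TAM libraries. Neutrophil markers summed to 1168 to 6879 FPKM in labelled knockout TAM and 1099 to 18768 in wild type. Labelled knockout TAM library 5 was the shallowest, at 0.123 of the depth of the deepest as read from the steps between low values, against 0.688 to 1.0 in the others. This depth rests on only 42 genes in library 5, and on at least 220 in each other TAM library. In bulk RNA, fewer cells of a type and less RNA per cell cannot be told apart.

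The first question was how IL4 moved its own receptor, kinases and inhibitors. After 24 h in the labelled knockout, 4 of the 10 genes rose (Socs1, Socs2, Cish and Il2rg) and 3 fell (Il13ra1, Il4ra and Jak3). The same 4 rose and the same 3 fell in wild type after 24 h. At 10 h the same 4 rose in both genotypes and Il13ra1 alone fell. The remaining genes, Jak1, Stat6 and Socs3, passed the threshold in neither genotype at either time (limma, adjusted p under 0.05 over all 10510 tested genes). Many genes moved with IL4, so these counts stand against a high background. In the labelled knockout 38.8% of all tested genes passed at 10 h (24.2% higher, 14.6% lower) and 43.7% at 24 h (26.5% higher, 17.1% lower). In wild type 42.4% passed at 10 h (28.2% higher, 14.2% lower) and 50.0% at 24 h (29.7% higher, 20.3% lower). The 5 of 10 members at 10 h and 7 of 10 at 24 h are to be read against these shares. The median log2 change of the 10 genes was 0.23 at 10 h and 0.02 at 24 h in the labelled knockout, against 0.06 and 0.07 for all tested genes. In wild type it was 0.13 and −0.0012 against 0.09 and 0.06. Socs1, Socs2 and Cish reached 1 FPKM in none of the 4 untreated libraries and were tested only because of the 8 with IL4, and Il13ra1 reached it in 6 libraries. Rescaling moves the balance of all calls: at 10 h higher genes made up 62.3% of the labelled knockout calls and 66.5% of the wild-type calls as deposited, 53.8% and 54.1% after median-of-ratios scaling, and 49.2% and 49.8% after quantile normalization. At 24 h they were 60.8%, 54.4% and 48.8% under these 3 scalings in the labelled knockout, and 59.4%, 54.5% and 48.1% in wild type.

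**Figure D1:**
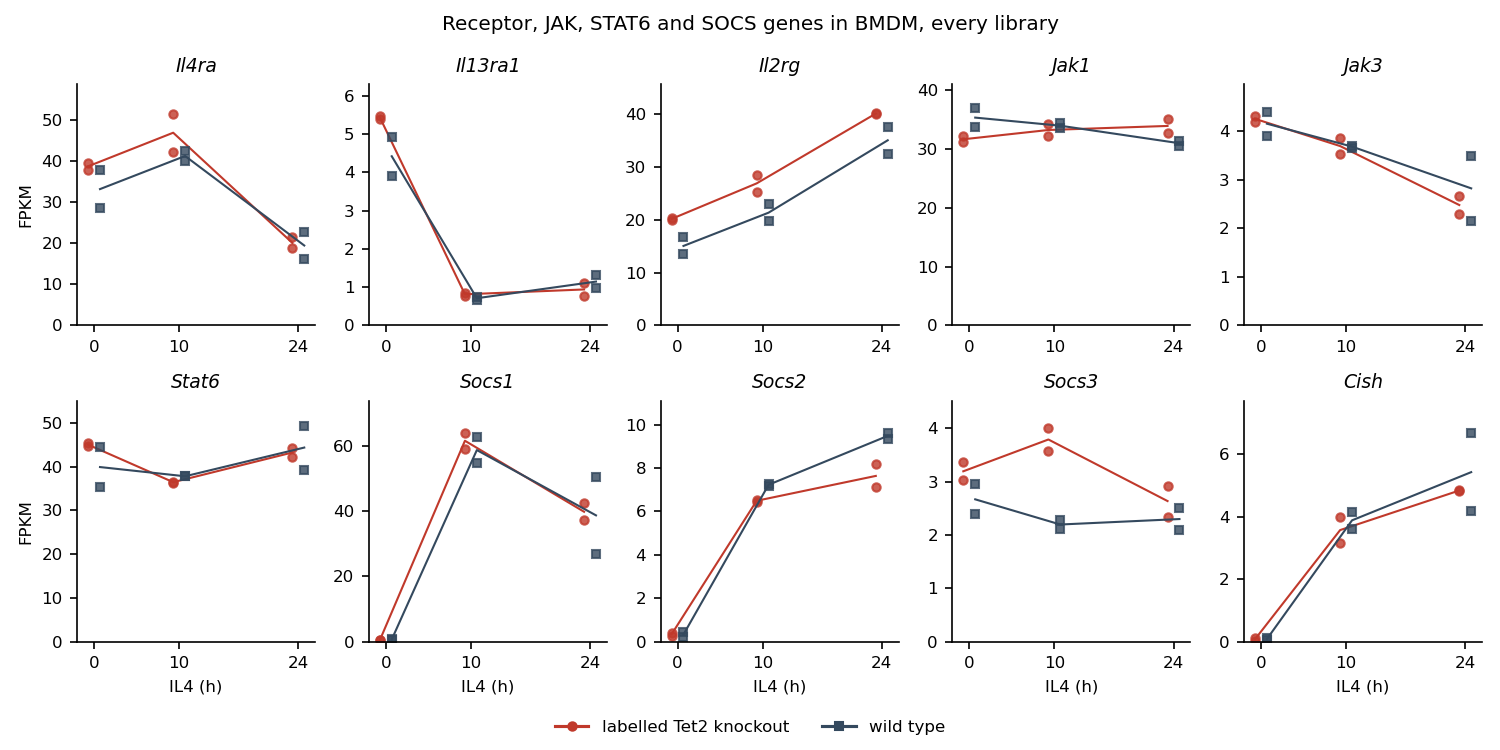
FPKM of the 10 genes in every BMDM library against hours of IL4, with 1 panel per gene and its own axis from 0; circles are labelled knockout and squares wild type (drawn slightly left and right of the same time), and lines join the means of 2 libraries. Socs1, Socs2 and Cish start below 1 FPKM and are up at 10 h, Il13ra1 drops below 1 FPKM at 10 h, Il4ra is lowest at 24 h and Il2rg is highest at 24 h in both genotypes.

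The receptor chains went in different directions. Il13ra1, the chain that also serves IL13, had 5.48 and 5.39 FPKM at 0 h, 0.780 and 0.847 at 10 h and 0.771 and 1.11 at 24 h in the labelled knockout. Wild-type Il13ra1 had 4.93 and 3.91, 0.754 and 0.669, and 1.31 and 0.985 FPKM at these times. Every untreated library lay above every IL4 library. Il13ra1 fell by 1.83 ± 0.13 (SE) on the log2(FPKM + 1) scale at 10 h in the labelled knockout (limma, adjusted p = 2.06e-06) and by 1.66 ± 0.13 in wild type (adjusted p = 4.42e-06), n = 2 per group. The 24 h difference was −1.73 ± 0.13 for the labelled knockout (adjusted p = 1.94e-06) and −1.33 ± 0.13 for wild type (adjusted p = 1.37e-05). This scale understates changes of low genes: mean FPKM at 10 h was 0.150 of the untreated mean for the labelled knockout and 0.161 of it for wild type.

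Il2rg, the common gamma chain, moved the other way. It had 20.0 and 20.3 FPKM at 0 h, 28.4 and 25.3 at 10 h and 40.0 and 40.1 at 24 h in the labelled knockout. Wild-type Il2rg had 13.4 and 16.6, 23.0 and 19.7, and 32.4 and 37.6 FPKM. Within each genotype no 2 of the 3 times overlapped. At 24 h Il2rg rose by 0.96 ± 0.12 in the labelled knockout (adjusted p = 1.38e-04) and by 1.17 ± 0.12 in wild type (adjusted p = 3.18e-05). The earlier rise at 10 h was 0.40 ± 0.12 in the labelled knockout (adjusted p = 0.0283) and 0.48 ± 0.12 in wild type (adjusted p = 0.0107). Quantile normalization ended both calls (labelled knockout 0.24, adjusted p = 0.193, and wild type 0.28, adjusted p = 0.131). In the labelled knockout so did median-of-ratios scaling (0.33, adjusted p = 0.0630), testing all genes without a filter (adjusted p = 0.0522) and leaving out any of the 4 libraries compared (adjusted p = 0.0504 to 0.178). In wild type leaving out library 1 of 0 h (0.34, adjusted p = 0.0542) or library 1 of 10 h (0.37, adjusted p = 0.104) did so.

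Il4ra, the chain that binds IL4, was lowest at 24 h. It had 37.9 and 39.6 FPKM at 0 h, 51.6 and 42.3 at 10 h and 21.5 and 18.8 at 24 h in the labelled knockout. Wild-type Il4ra had 37.8 and 28.7, 40.0 and 42.5, and 16.2 and 22.7 FPKM. In both genotypes the 24 h libraries lay below all the others, and the 10 h libraries above the untreated ones. The 10 h values did not pass against 0 h, with log2 differences of 0.26 ± 0.17 in the labelled knockout (adjusted p = 0.256) and 0.32 ± 0.17 in wild type (adjusted p = 0.162). At 24 h Il4ra fell by 0.92 ± 0.17 in the labelled knockout (adjusted p = 0.00157) and by 0.75 ± 0.17 in wild type (adjusted p = 0.00476). Against 10 h the 24 h level changed by −1.18 ± 0.17 for the labelled knockout (adjusted p = 8.03e-04) and −1.06 ± 0.17 for wild type (adjusted p = 0.00161).

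The ratio of the gamma chain to the IL13 receptor chain, Il2rg FPKM over Il13ra1 FPKM, puts these changes together. It was 3.66 and 3.76 at 0 h, 36.5 and 29.8 at 10 h and 51.9 and 36.1 at 24 h in the labelled knockout. The wild-type ratios were 2.73 and 4.26, 30.5 and 29.4, and 24.8 and 38.2. The 8 IL4 libraries lay between 24.8 and 51.9 and the 4 untreated ones between 2.73 and 4.26. The ratio follows from the changes of both chains already given, and no separate test was made of it in BMDM. It compares mRNA levels and not receptor proteins on the cell.

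Among the kinases, Jak1 varied little. It had 31.1 and 32.2 FPKM at 0 h, 32.1 and 34.3 at 10 h and 32.6 and 35.1 at 24 h in the labelled knockout. Wild-type Jak1 had 33.7 and 36.9, 33.5 and 34.4, and 31.4 and 30.5 FPKM. Its log2 differences to untreated were between −0.18 and 0.10, with 95% confidence intervals that all lie between −0.38 and 0.29. With quantile normalization Jak1 passed as lower in wild type, at 10 h (−0.35, adjusted p = 0.0300) and at 24 h (−0.45, adjusted p = 0.00748), and without wild-type library 1 of 0 h it passed at 24 h (−0.25, adjusted p = 0.0425).

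Jak3, the kinase on the gamma chain, was far lower than Jak1 and had 4.20 and 4.31 FPKM at 0 h, 3.87 and 3.53 at 10 h and 2.68 and 2.29 at 24 h in the labelled knockout. Wild-type Jak3 had 4.40 and 3.91, 3.70 and 3.67, and 2.15 and 3.50 FPKM. At 24 h it fell by 0.60 ± 0.15 in the labelled knockout (adjusted p = 0.00738) and by 0.45 ± 0.15 in wild type (adjusted p = 0.0255). So Jak3 and Il2rg, whose proteins work as a pair, moved in opposite directions at 24 h. The decrease in wild type did not pass without library 1 of 0 h (−0.38, adjusted p = 0.107), without library 1 of 24 h (−0.19, adjusted p = 0.170), with no filter (adjusted p = 0.0685) or with only the compared libraries in the fit (adjusted p = 0.0729). In the labelled knockout it did not pass without library 2 of 24 h (−0.52, adjusted p = 0.0616).

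Stat6, the transcription factor of the pathway, had 45.3 and 44.7 FPKM at 0 h, 36.3 and 36.6 at 10 h and 42.2 and 44.3 at 24 h in the labelled knockout. Wild-type Stat6 had 44.5 and 35.3, 37.9 and 37.8, and 39.4 and 49.4 FPKM. The labelled knockout libraries of 10 h lay below those of 0 h, while the wild-type groups overlapped. The 10 h differences were −0.30 ± 0.13 in the labelled knockout (adjusted p = 0.0929) and −0.07 ± 0.13 in wild type (adjusted p = 0.701), and for 24 h the labelled knockout had −0.06 ± 0.13 and wild type 0.15 ± 0.13 (adjusted p = 0.749 and 0.359). The value of the labelled knockout at 10 h stands near the threshold. It passed with median-of-ratios scaling (−0.37, adjusted p = 0.00699), with only the compared libraries (adjusted p = 0.00352), and without either wild-type library of 0 h or of 24 h (adjusted p = 0.0402 to 0.0456). With quantile normalization Stat6 passed as lower at 10 h in both genotypes (labelled knockout −0.50, adjusted p = 5.07e-04, and wild type −0.35, adjusted p = 0.00421) and at 24 h in the labelled knockout (−0.25, adjusted p = 0.0192).

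Socs1, which blocks the JAK kinase domains directly, had the largest log2(FPKM + 1) change of the 10 genes at both times. By the ratio of mean FPKM to untreated, Socs1 stood at 92.2 and Cish at 63.8 in the labelled knockout at 24 h, while in wild type Cish stood higher, at 65.0 against 58.7 for Socs1. It had 0.443 and 0.420 FPKM at 0 h, 64.0 and 59.2 at 10 h and 42.4 and 37.2 at 24 h in the labelled knockout. Wild-type Socs1 had 0.585 and 0.735, 54.7 and 62.8, and 26.8 and 50.6 FPKM. From one of the lowest of the 10 levels it became the highest at 10 h in both genotypes. The log2 change at 10 h was 5.45 ± 0.22 in the labelled knockout (adjusted p = 4.08e-08) and 5.17 ± 0.22 in wild type (adjusted p = 6.33e-08), and at 24 h it was 4.83 ± 0.22 for the labelled knockout and 4.51 ± 0.22 for wild type (adjusted p = 7.22e-08 and 1.09e-07). The ratio of mean FPKM at 10 h to that at 0 h was 143 for the labelled knockout and 89.0 for wild type, over untreated means of 0.432 and 0.660 FPKM whose depth is unknown.

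Socs2 and Cish, known as STAT5 targets in other cytokine pathways, were also induced in both genotypes. Socs2 had 0.263 and 0.409 FPKM at 0 h, 6.53 and 6.44 at 10 h and 7.10 and 8.16 at 24 h in the labelled knockout. Wild-type Socs2 had 0.421 and 0.234, 7.19 and 7.26, and 9.33 and 9.62 FPKM. It rose by 2.49 ± 0.10 at 10 h in the labelled knockout and by 2.64 ± 0.10 in wild type (adjusted p = 4.78e-08 and 3.1e-08), and at 24 h by 2.69 ± 0.10 for the labelled knockout and 2.98 ± 0.10 for wild type (adjusted p = 1.89e-08 and 8.95e-09). Cish, whose window holds the 2 STAT motifs shown above, was the lowest of the 10 genes before IL4. It had 0.0223 and 0.129 FPKM at 0 h, 3.15 and 4.00 at 10 h and 4.84 and 4.84 at 24 h in the labelled knockout. Wild-type Cish had 0.0562 and 0.111, 3.62 and 4.15, and 4.17 and 6.69 FPKM. It rose by 2.08 ± 0.17 at 10 h in the labelled knockout and by 2.17 ± 0.17 in wild type (adjusted p = 6.26e-06 and 4.91e-06), and at 24 h by 2.44 ± 0.17 for the labelled knockout and 2.54 ± 0.17 for wild type (adjusted p = 1.32e-06 and 9.86e-07).

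Socs3, which binds the shared gp130 receptor chain of the IL6 family, did not share this response. It had 3.36 and 3.03 FPKM at 0 h, 3.57 and 4.01 at 10 h and 2.35 and 2.93 at 24 h in the labelled knockout. Wild-type Socs3 had 2.95 and 2.39, 2.28 and 2.12, and 2.09 and 2.50 FPKM. Its log2 differences to untreated lay between −0.21 and 0.19 and none passed (adjusted p = 0.182 to 0.312). With median-of-ratios scaling the wild-type 10 h value passed as lower (−0.27, adjusted p = 0.0475).

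**Figure D2:**
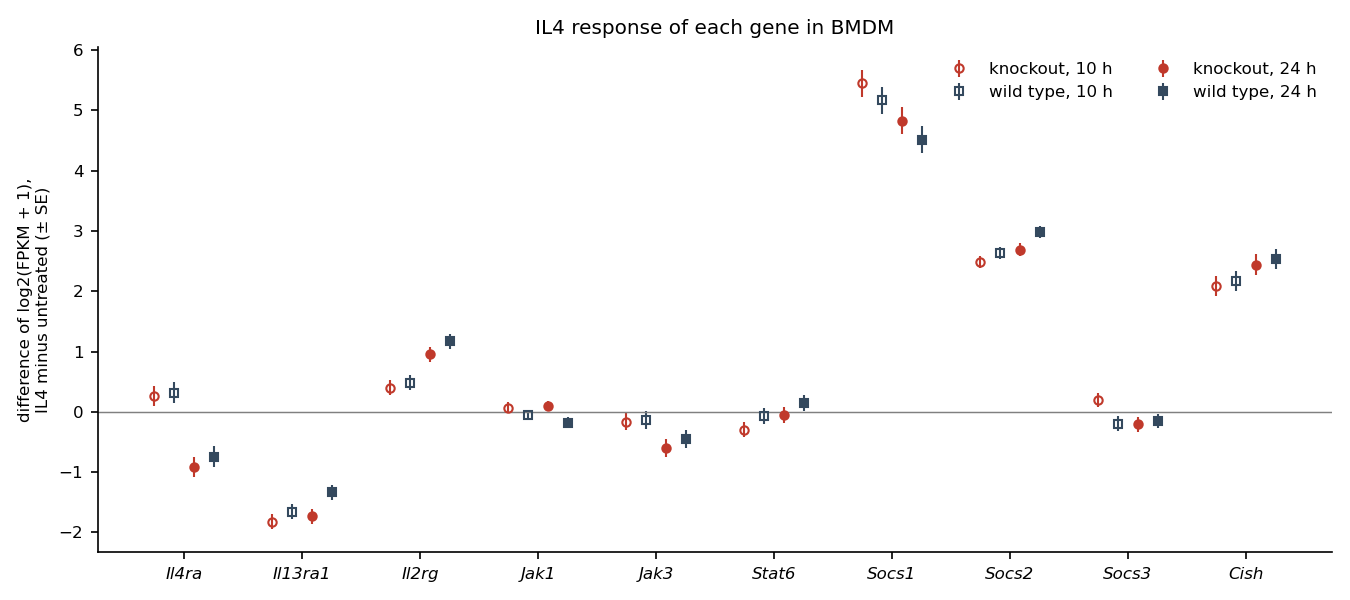
Difference of log2(FPKM + 1) between IL4 and untreated BMDM for each gene, at 10 h (open) and 24 h (filled), in labelled knockout (circles) and wild type (squares); bars are ± SE of the limma fit, n = 2 libraries per group. Socs1, Socs2, Cish and Il2rg lie above 0 and Il13ra1 below it at both times, and Il4ra and Jak3 are below 0 at 24 h in both genotypes.

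Between 10 and 24 h fewer members moved. In the labelled knockout 3 of 10 passed, Il2rg up (0.56 ± 0.12, adjusted p = 0.00855) and Il4ra and Socs3 down, where 23.0% of all tested genes passed. In wild type 3 of 10 passed, Il2rg (0.69 ± 0.12, adjusted p = 0.00295) and Socs2 (0.35 ± 0.10, adjusted p = 0.0313) up and Il4ra down, where 25.9% passed. Socs1 had lower 24 h means in both, and neither difference passed: the labelled knockout had −0.62 ± 0.22 (adjusted p = 0.0682) and wild type −0.65 ± 0.22 (adjusted p = 0.0528). In wild type this value rests on library 2 of 24 h, which had 50.6 FPKM against 26.8 in library 1: without it Socs1 passed in wild type (−1.10, adjusted p = 5.46e-04) and also in the labelled knockout (adjusted p = 0.00182), and without library 1 it passed in the labelled knockout only (adjusted p = 0.00180). The decrease of Socs3 in the labelled knockout (−0.40 ± 0.12, adjusted p = 0.0339) did not pass when either wild-type library of 10 h, either labelled knockout library of 10 h or labelled knockout library 1 of 24 h was left out (adjusted p = 0.0524 to 0.227). Median-of-ratios scaling (−0.60 for each genotype, with adjusted p = 0.0460 for the labelled knockout and 0.0438 for wild type) also let the Socs1 difference pass, as did quantile normalization in wild type (adjusted p = 0.0384). Jak3 in the labelled knockout (−0.43 ± 0.15, adjusted p = 0.0563) likewise stands at the threshold, and passed as lower with either scaling (adjusted p = 0.0344 and 0.0241) and without wild-type library 1 or 2 of 24 h (adjusted p = 0.00608 and 0.00616). Cish passed as higher in wild type without library 1 of 24 h (0.66, adjusted p = 0.0084) and in the labelled knockout without wild-type library 1 or 2 of 24 h (0.36, adjusted p = 0.0357 and 0.0362). Jak3 in wild type passed as lower without library 2 of 24 h (−0.57, adjusted p = 0.00575). Stat6, which had differences of 0.24 in the labelled knockout (adjusted p = 0.210) and 0.22 in wild type (adjusted p = 0.247), passed as higher for the labelled knockout with quantile normalization (adjusted p = 0.0372) or only the compared libraries (adjusted p = 0.0414), and for wild type with median-of-ratios scaling (adjusted p = 0.0424). Il13ra1 in wild type (0.32, adjusted p = 0.0841) passed as higher with a pseudocount of 0.1 (0.61, adjusted p = 0.0478). The rise of Socs2 in wild type did not pass without any 1 of its 4 libraries (adjusted p = 0.0588 to 0.136), nor with a pseudocount of 0.1 (adjusted p = 0.202), no filter (0.0633) or only the compared libraries (0.0628), and that of Il2rg in the labelled knockout not without library 2 of 10 h or either library of 24 h (adjusted p = 0.0500 to 0.0736).

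The second question was whether the labelled knockout differed from wild type in these genes. In untreated BMDM 0 of 10 passed, where 2.70% of all tested genes did, and 1 of 10, Il2rg, had an unadjusted p under 0.05. At 10 h 1 of 10 passed (Socs3; limma, 2 at an unadjusted p under 0.05) against 2.84% of all genes, and at 24 h 0 of 10 against 7.43%, with 1, Socs2, at an unadjusted p under 0.05. Averaged over the 3 times, 2 of 10 passed, Il2rg and Socs3, both higher, against 9.94% of all genes. Of all genes called, 71.2% were higher in the labelled knockout at 24 h and 71.0% over the times as deposited, 46.4% and 54.8% after median-of-ratios scaling, and 54.0% and 55.8% after quantile normalization, while both member calls over the times held under either scaling.

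Il2rg was higher in the labelled knockout at each time, with both labelled knockout libraries above both wild-type ones (20.0 and 20.3 against 13.4 and 16.6 FPKM at 0 h, 28.4 and 25.3 against 23.0 and 19.7 at 10 h, 40.0 and 40.1 against 32.4 and 37.6 at 24 h). The log2 difference was 0.41 ± 0.12 at 0 h (adjusted p = 0.147), 0.32 ± 0.12 at 10 h (0.342), 0.19 ± 0.12 at 24 h (0.367) and 0.31 ± 0.07 over the times (adjusted p = 0.0226). The average no longer passed, with differences of 0.27 to 0.31, without either labelled knockout library of 0 h or of 24 h, labelled knockout library 1 of 10 h or wild-type library 2 of 10 h (adjusted p = 0.0596 to 0.0843). Il2rg is also a gene of lymphocytes. Summed T and NK cell markers were 44.1 to 44.8 FPKM in the labelled knockout against 26.0 to 31.1 in wild type at 0 h, 21.6 to 24.8 against 19.4 to 22.6 at 10 h and 21.9 to 23.3 against 27.99 to 35.4 at 24 h. Only 1 or 2 of these 10 markers reached 1 FPKM in a BMDM library, and the T cell receptor genes Cd3e and Cd3d were at most 0.0412 and 0.0511 FPKM in labelled knockout and 0.112 and 0.101 in wild-type libraries. Most of the sum at 0 h was Il7r, a partner of the gamma chain, with 31.1 to 31.8 FPKM in labelled knockout and 21.4 to 26.2 in wild type. In wild type at 24 h Il7r had 27.2 to 34.4 FPKM. Il7r gave no call between genotypes at 0 h (0.39 ± 0.14, limma, adjusted p = 0.235) or 24 h (−0.51 ± 0.14, adjusted p = 0.0554). These sums thus follow mainly 1 gene and do not measure lymphocyte content. Summed over 5 B cell markers, labelled knockout libraries had 2.90 to 3.18 FPKM against 0.420 to 1.40 in wild type at 0 h, 2.16 to 2.95 against 1.18 to 1.19 at 10 h and 2.10 to 2.49 against 1.41 to 1.60 at 24 h, without overlap, and at most 1 of the 5 reached 1 FPKM in a library. The fibroblast marker sum given with the libraries was also higher in the labelled knockout at all 3 times. The part of these markers in the Il2rg difference was not tested.

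Socs3 was higher in the labelled knockout by 0.58 ± 0.12 at 10 h (adjusted p = 0.0257), with 3.57 and 4.01 FPKM against 2.28 and 2.12 in wild type. It was 3.36 and 3.03 FPKM in labelled knockout against 2.95 and 2.39 in wild type at 0 h (0.20 ± 0.12, adjusted p = 0.490) and 2.35 and 2.93 in labelled knockout against 2.09 and 2.50 in wild type at 24 h (0.14 ± 0.12, adjusted p = 0.508), with overlap at 24 h only. The 10 h call was lost without any 1 of its 4 libraries (0.52 to 0.65, adjusted p = 0.103 to 0.229) and with no filter (adjusted p = 0.0620). The average over times, 0.31 ± 0.07 (adjusted p = 0.0186), did not pass without labelled knockout library 1 of 0 h, library 2 of 10 h or library 2 of 24 h, or without wild-type library 2 of 10 h (adjusted p = 0.0634 to 0.0650). The fibroblast and B cell marker sums were also higher in the labelled knockout at all 3 times, by the values given above, and their part in this difference was not tested.

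The receptor chain Il4ra, the kinases and Stat6 gave no call between genotypes at any time. Over the 3 times the 95% confidence intervals of the log2 difference were −0.07 to 0.37 for Il4ra, −0.10 to 0.22 for Il13ra1, −0.13 to 0.10 for Jak1, −0.21 to 0.16 for Jak3 and −0.13 to 0.20 for Stat6. Those of Socs1 (−0.30 to 0.27) and Cish (−0.29 to 0.14) also include 0. Socs2 was 7.10 and 8.16 FPKM in labelled knockout against 9.33 and 9.62 in wild type at 24 h (−0.28 ± 0.10, adjusted p = 0.120). Without wild-type library 2 of 24 h, Socs1 passed as higher in the labelled knockout at 24 h (0.55, adjusted p = 0.0359).

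**Figure D3:**
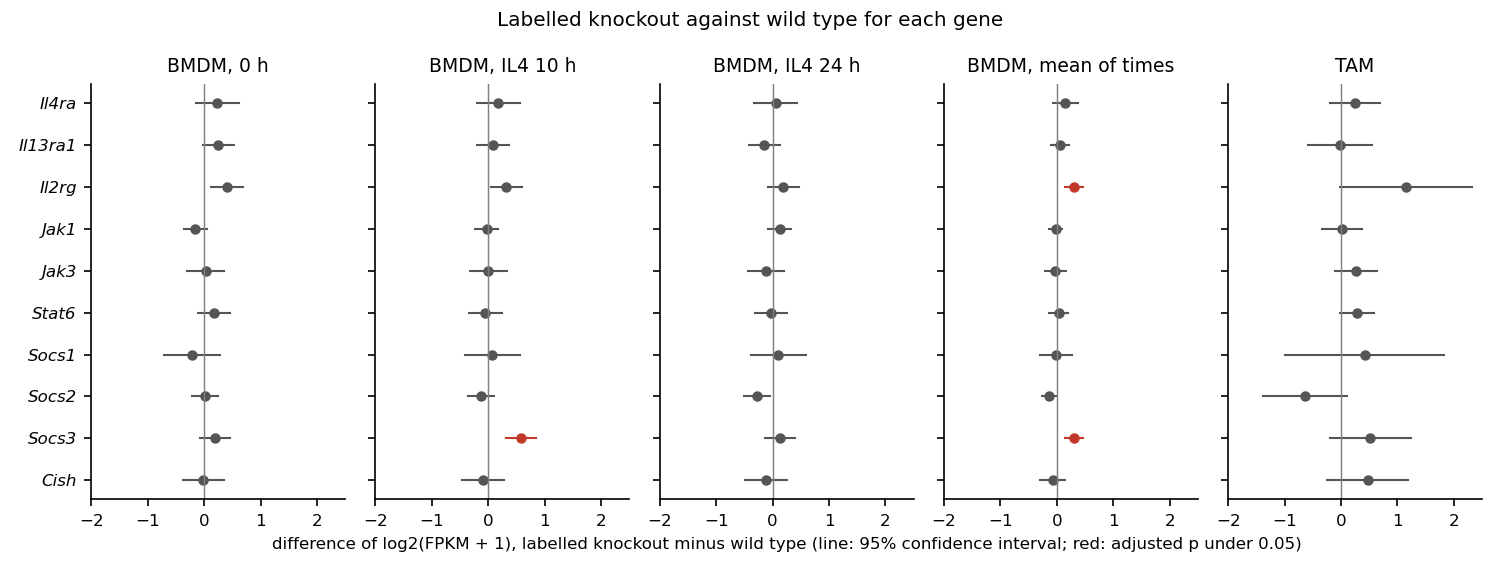
Difference of log2(FPKM + 1) between labelled knockout and wild type for each gene in BMDM at each time, averaged over times, and in TAM; points are limma estimates, lines 95% confidence intervals, and red marks an adjusted p under 0.05. Red points are Socs3 at 10 h and Il2rg and Socs3 over the times, and the TAM intervals are the widest.

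The IL4 response itself was compared between genotypes as an interaction. At 10 h 0 of 10 genes passed, where 0.0951% of all tested genes did, and at 24 h 0 of 10, where 0.295% did (limma). At an unadjusted p under 0.05 there was 1 at 10 h, Socs3 (0.39 ± 0.17), and 1 at 24 h, Il13ra1 (−0.40 ± 0.18). For Socs1 the response of the labelled knockout minus that of wild type was 0.28 at 10 h (95% confidence interval −0.41 to 0.98) and 0.32 at 24 h (−0.38 to 1.01). For Socs2 it was −0.15 (−0.47 to 0.18) and −0.29 (−0.62 to 0.03), and for Cish −0.09 (−0.61 to 0.44) and −0.10 (−0.62 to 0.43). These intervals, from 2 libraries per group, do not show that the responses are equal. Among 20 genes known to respond to IL4 through STAT6, 1 passed at 10 h and 2 at 24 h, all with a smaller response in the labelled knockout, and 19 and 18 did not pass. Arg1, the arginase of alternative activation, differed in its response by −1.39 ± 0.17 at 10 h (adjusted p = 0.0113) and −1.59 ± 0.17 at 24 h (adjusted p = 0.00340). Tgm2, a transglutaminase, differed by −1.12 ± 0.18 at 24 h (adjusted p = 0.0425). Tgm2 was higher in the untreated labelled knockout than in wild type (0.89 ± 0.13, limma, adjusted p = 0.00459). At 24 h it gave no call between genotypes (−0.23 ± 0.13, adjusted p = 0.294). Arg1 gave no call between genotypes at 0 h (0.21 ± 0.12, adjusted p = 0.471) and was lower in the labelled knockout at 24 h (−1.38 ± 0.12, adjusted p = 2.84e-04).

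In TAM, 0 of the 10 genes passed between labelled knockout and wild type, where 0.101% of 9897 tested genes did (limma; 10 genes), and 0 of 10 had an unadjusted p under 0.05. The largest difference was that of Il2rg, which had 276, 266, 185 and 177 FPKM in labelled knockout TAM, against 165, 124, 154 and 30.1 FPKM in wild type. All 4 labelled knockout libraries lay above all 4 wild-type ones, the log2 difference was 1.15 ± 0.51 (adjusted p = 0.297), and without wild-type library 8 it was 0.59 (adjusted p = 0.262). Ptprc, which encodes CD45 on all leukocytes, likewise had 298 to 408 FPKM in labelled knockout and 84.7 to 223 in wild-type TAM (1.08 ± 0.30, adjusted p = 0.158), and its part in the Il2rg difference was not tested. T and NK markers summed to 24.1 to 28.9 FPKM in labelled knockout TAM and 10.7 to 50.7 in wild type, lowest in library 8.

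The other receptor genes overlapped between the TAM groups. Il4ra had 70.2, 69.6, 76.7 and 69.5 FPKM in labelled knockout TAM, against 46.6, 60.7, 51.8 and 87.7 in wild type, where library 8 is the highest (0.25 ± 0.20, adjusted p = 0.522; 0.43 without that library, adjusted p = 0.195). Il13ra1 had 62.1, 51.9, 36.4 and 35.4 FPKM in labelled knockout TAM, against 45.9, 59.9, 49.8 and 31.9 in wild type (−0.02 ± 0.25, adjusted p = 0.976). The kinases and Stat6 gave no call: Jak1 averaged 49.2 ± 8.46 FPKM in labelled knockout and 48.1 ± 4.89 in wild-type TAM (SD, n = 4 each), Jak3 10.4 ± 1.79 in labelled knockout and 8.50 ± 1.51 in wild type, and Stat6 48.7 ± 4.69 in labelled knockout and 39.8 ± 4.22 in wild type. Stat6 had 51.4, 51.4, 50.2 and 41.7 FPKM in labelled knockout TAM, against 43.7, 43.2, 36.1 and 36.2 in wild type, so that 3 of 4 labelled knockout libraries lay above all wild-type ones (0.28 ± 0.13, adjusted p = 0.311).

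Socs3 was among the highest of these genes in TAM, with 215, 240, 262 and 120 FPKM in labelled knockout and 114, 232, 114 and 127 in wild-type libraries (0.52 ± 0.32, adjusted p = 0.416). Socs1 split both groups. It had 15.1, 19.0, 3.87 and 2.53 FPKM in labelled knockout libraries 3, 4, 5 and 6, against 5.02, 11.6, 5.77 and 2.39 in wild-type libraries 1, 2, 7 and 8 (0.42 ± 0.62, adjusted p = 0.750). The 3 libraries with the most Socs1 are among the 4 with the highest neutrophil marker sums, 6879 and 5821 FPKM in labelled knockout libraries 3 and 4, and 8435 and 18768 in wild-type libraries 1 and 2, against 1099 to 1602 in the other 4. The part of these markers in the Socs1 level was not tested. Socs2 had 1.57, 0.821, 3.09 and 1.55 FPKM in labelled knockout and 2.00, 2.48, 6.19 and 2.81 in wild-type TAM (−0.64 ± 0.32, adjusted p = 0.347), and Cish had 10.6, 14.97, 10.3 and 6.68 in labelled knockout against 7.04, 5.84, 13.2 and 4.50 in wild type (0.48 ± 0.32, adjusted p = 0.452).

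**Figure D4:**
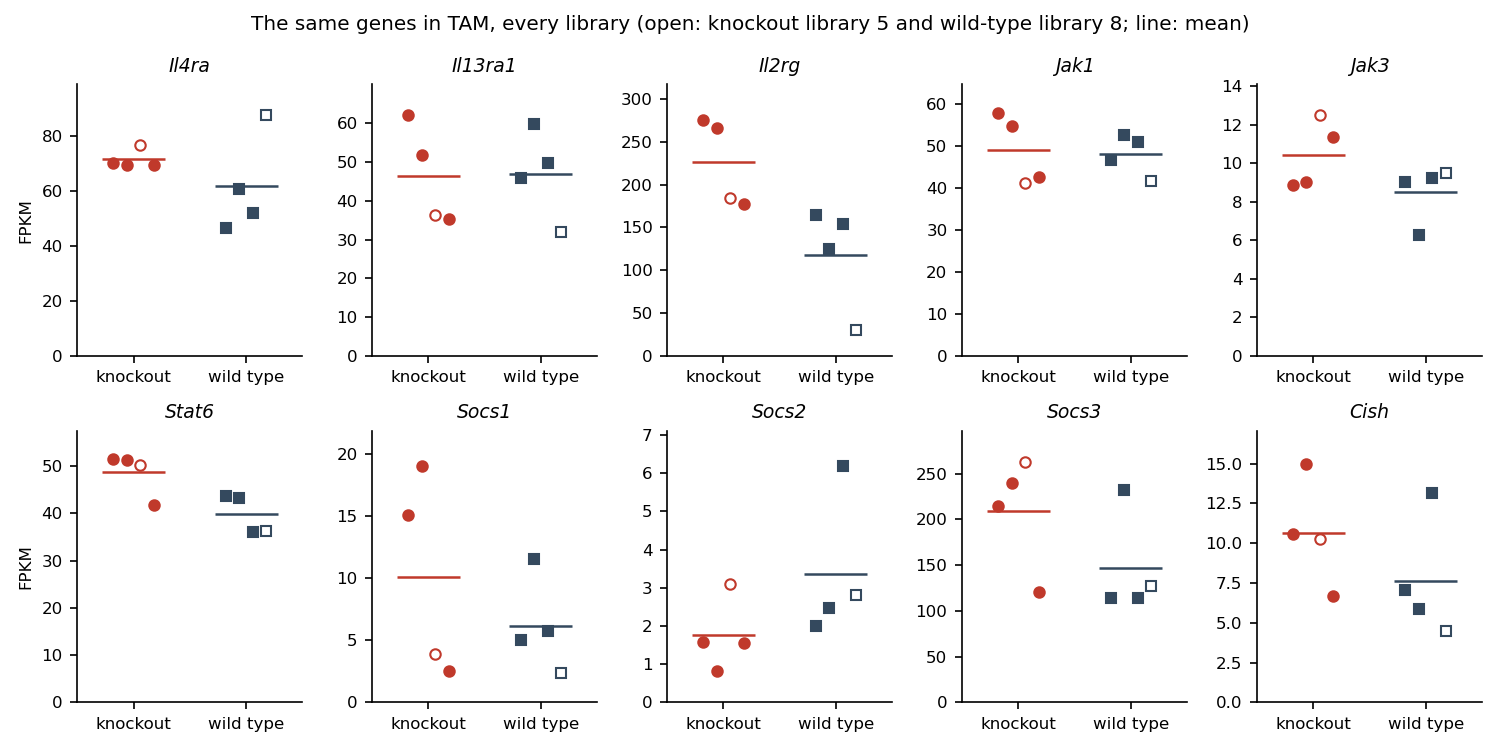
FPKM of the 10 genes in every TAM library, labelled knockout (circles, left) and wild type (squares, right), each panel with its own axis from 0; lines are means of 4 libraries, and open symbols are labelled knockout library 5 and wild-type library 8. Il2rg does not overlap between the groups, with 177 to 276 FPKM in labelled knockout and 30.1 to 165 in wild type, and the other genes overlap.

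The ratio of Il2rg to Il13ra1 was tested in TAM as a single value per library. It was 4.44, 5.12, 5.07 and 5.02 in labelled knockout TAM, against 3.59, 2.07, 3.09 and 0.942 in wild type, and the groups did not overlap. The mean log2 ratio was 2.29 ± 0.0969 in labelled knockout and 1.11 ± 0.865 in wild type (SD, n = 4 each), a difference of 1.18 (exact permutation test, two-sided, p = 0.0286, the smallest this design allows). Wild-type library 8 carries part of the size, since without it the difference was 0.785 (exact permutation p = 0.0286). Without labelled knockout library 3, 4, 5 or 6 the difference was 1.16 to 1.23 and the exact permutation p 0.0571 to 0.0857, over the threshold. The ratio was 1 of a small number of values chosen with earlier results known, and neither chain passed alone. It was not alone in separating these groups. The phosphatase gene Ptpn6 had 112 to 140 FPKM in labelled knockout TAM against 65.2 to 88.3 in wild type. The adaptor gene Grb2 had 77.4 to 93.9 in labelled knockout against 49.8 to 61.1 in wild type. Ptprc and, in the other direction, the macrophage marker sum did not overlap either, by the values given above. Il21r, another partner of the gamma chain, had 37.7 to 46.1 FPKM in labelled knockout and at most 24.5 in wild type. Its log2 difference was 1.14 ± 0.22 (limma, adjusted p = 0.102). Stat5b had 9.03 to 10.5 FPKM in labelled knockout against 7.45 to 8.33 in wild type. Socs6 and Socs7 were likewise higher in labelled knockout without overlap, and Pias3 was lower without overlap. Jak2 and Shc1 overlapped, and 0 of the 30 other pathway genes tested passed. The part of these differences in the ratio was not tested.

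**Figure D5:**
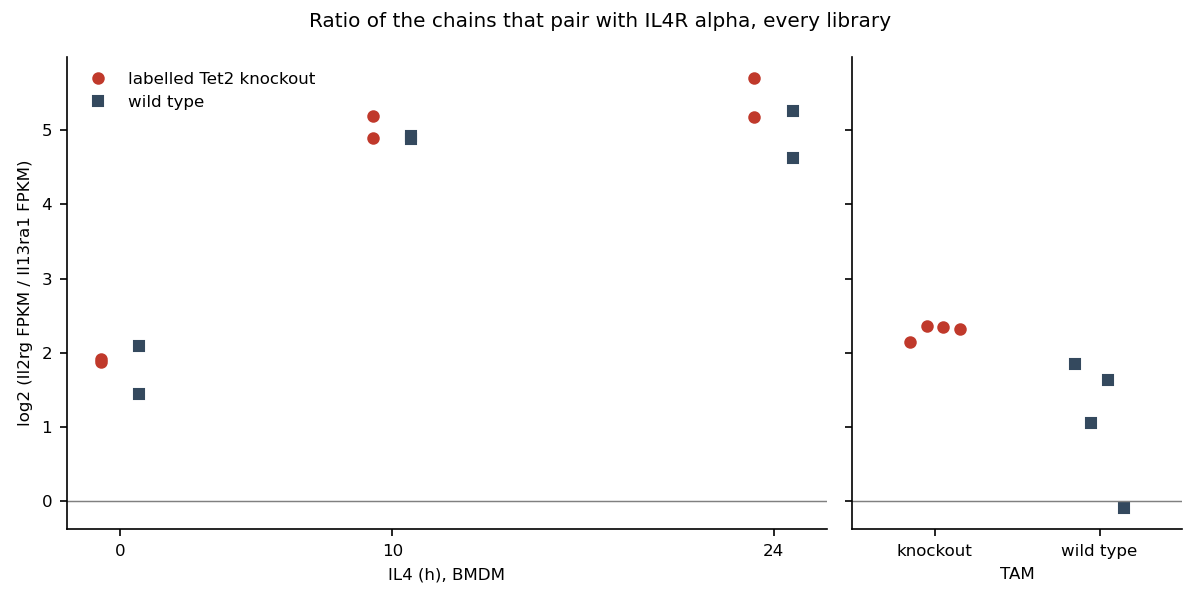
Log2 of Il2rg FPKM over Il13ra1 FPKM in every library, left in BMDM against hours of IL4 and right in TAM; circles are labelled knockout, squares wild type. The IL4 libraries of BMDM sit far above the untreated ones, and in TAM the 4 labelled knockout libraries lie close together above the wild-type ones.

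FPKM are scaled by gene length, so the 10 levels can be ordered within a group. In untreated labelled knockout BMDM the order was Stat6 (45.0 FPKM), Il4ra (38.8), Jak1 (31.6), Il2rg (20.1), Il13ra1 (5.43), Jak3 (4.26), Socs3 (3.19), Socs1 (0.432), Socs2 (0.336) and Cish (0.0758), with no overlap between neighbours in this group of 2. In untreated wild type it was Stat6 (39.9), Jak1 (35.3) and Il4ra (33.2), which overlapped, then Il2rg (15.04), Il13ra1 (4.42) and Jak3 (4.16), which overlapped, and Socs3 (2.67), Socs1 (0.660), Socs2 (0.327) and Cish (0.0836). After 24 h of IL4 the Il2rg level had passed that of Il4ra in both genotypes, with 40.1 against 20.1 FPKM in the labelled knockout and 35.0 against 19.5 in wild type. In labelled knockout TAM the order began with Il2rg (226 FPKM) and Socs3 (209), which overlapped, then Il4ra (71.5). Next were Jak1 (49.2), Stat6 (48.7) and Il13ra1 (46.4), each overlapping the next. Below these stood Cish (10.6), Jak3 (10.4), Socs1 (10.1) and Socs2 (1.76), again each overlapping the next. In wild-type TAM it began with Socs3 (147), Il2rg (118), Il4ra (61.7), Jak1 (48.1), Il13ra1 (46.9) and Stat6 (39.8), each overlapping the next. It ended with Jak3 (8.50), Cish (7.64), Socs1 (6.19) and Socs2 (3.37), which also each overlapped the next.

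BMDM and TAM levels can only be set side by side, because the tables were normalized separately, with ribosomal RNA depletion for BMDM and polyA selection for TAM. Socs3 was 114 to 262 FPKM over the TAM libraries and 2.09 to 4.01 over the BMDM libraries. Il13ra1 was 31.9 to 62.1 FPKM in TAM and 0.669 to 5.48 in BMDM. Jak1 was 41.3 to 58.0 FPKM in TAM and 30.5 to 36.9 in BMDM.

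The rest of the pathway was read from a list of 36 other genes of IL4 receptor and JAK-STAT signalling, of which 28 were tested in BMDM and 30 in TAM. In the labelled knockout 5 were higher and 7 lower at 10 h, where 24.2% of all tested genes were higher and 14.6% lower, and 7 were higher and 5 lower at 24 h (26.5% and 17.1% of all). In wild type 6 were higher and 2 lower at 10 h (28.2% and 14.2% of all), and 8 were higher and 6 lower at 24 h (29.7% and 20.3% of all). Jak2, which can pair with the IL13 receptor chain, rose by 1.50 ± 0.09 and 1.34 ± 0.09 in the labelled knockout at 10 and 24 h and by 1.33 ± 0.09 and 1.17 ± 0.09 in wild type (adjusted p at most 4.57e-06). Of the kinases of this receptor, Jak2 thus rose at both times, Jak3 fell at 24 h and Jak1 gave no call. Tyk2, the other kinase of the list, passed as higher at 24 h in wild type (0.43 ± 0.15, limma, adjusted p = 0.0355). In the labelled knockout it did not pass at 24 h (0.17 ± 0.15, adjusted p = 0.376), and at 10 h it passed in neither genotype. Dok2, an adaptor that restrains Ras signalling, rose by 3.59 ± 0.16 at 24 h in the labelled knockout, with 154 to 167 FPKM against 11.7 to 13.0 untreated, and by 3.68 ± 0.16 in wild type, with 171 to 222 against 11.98 to 17.1.

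Phosphatases that act on this pathway moved in both directions. Ptpn2, a tyrosine phosphatase of JAK1, JAK3 and STATs, rose by 1.41 ± 0.18 at 24 h in the labelled knockout and by 1.55 ± 0.18 in wild type (adjusted p = 1.01e-04 and 5.02e-05). Inpp5d, the lipid phosphatase SHIP1, fell at 24 h by 1.14 ± 0.10 in the labelled knockout and by 1.09 ± 0.10 in wild type (adjusted p = 8.37e-06 and 1.04e-05). The adaptor Shc1 rose at 24 h by 1.02 ± 0.11 in the labelled knockout and by 1.21 ± 0.11 in wild type. Il21r, another partner of the gamma chain, fell by 1.05 ± 0.12 in the labelled knockout and by 1.01 ± 0.12 in wild type. Between genotypes 1 of the 28 genes passed at 0 h, where 2.70% of all tested genes did, and 0 at 10 h (2.84%), at 24 h (7.43%) and over the times (9.94%). The 1 gene was Socs4, which was lower in untreated labelled knockout (3.81 and 4.09 FPKM, against 5.24 and 6.43 in wild type, −0.46 ± 0.10, adjusted p = 0.0371). In TAM 0 of the 30 passed (0.101% of all tested genes), with a median log2 difference of 0.25 beside 0.09 for all tested genes. Among untested genes, the decoy receptor Il13ra2 was at most 0.339 FPKM in labelled knockout and 0.0922 in wild-type libraries, and Il13 was listed at 0 in all BMDM libraries.

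As a readout downstream, 20 genes known to respond to IL4 through STAT6 were counted. The list was made of known IL4 responders with earlier results of these data known, so the counts of rises describe and do not test. In the labelled knockout 19 of 20 rose and 0 fell at both times, with median log2 changes of 2.19 and 2.33, and in wild type 19 and 20 rose, with medians of 1.80 and 2.33. The shares of all tested genes that rose, 24.2% to 29.7%, are those given above. Between genotypes, averaged over times, 2 were higher and 6 lower in the labelled knockout, where 9.94% of all tested genes passed in either direction, with a median difference of −0.08 beside 0.03 for all tested genes. The lower ones were Arg1, the lectin genes Mgl2 and Clec10a, and the transcription factor genes Klf4, Irf4 and Egr2, and the higher ones Tgm2 and Cdh1. In TAM, where 0.101% of all tested genes passed, 1 of 16 tested was lower, Clec10a (−1.87 ± 0.18, adjusted p = 0.0149), and 0 higher.

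For each gene, the genes most like it over the 12 BMDM libraries were found by Pearson's r of log2(FPKM + 1) among 9338 other tested genes with a mean of at least 1 FPKM. The libraries share the IL4 and genotype groups, so a high r mostly says that 2 genes have the same group pattern, and no p is given. Socs1 was most like Ddhd1 (r = 0.998), Ap2m1 and Srsf9, and Socs2 and Cish had the same nearest gene, the prostacyclin receptor gene Ptgir (0.998 and 0.993). Cish was next to Flt1 and Slamf8, and Socs2 to Adipoq and Egr2. Il13ra1 was most like Ctla2b (0.990), Angptl4 and Klhl6, Il2rg most like Gstp1 (0.986), Flna and Vwf, and Il4ra most like Nhlrc3 (0.981), Ttyh2 and Pqlc2. Jak3 was most like Sphk2 (0.979), Wdr81 and Grina, Stat6 most like Taf6 (0.953), Stx5a and Tmem43, and Jak1 most like Rap1b (0.917), Zfp148 and Rictor. Socs3 had the weakest match, to Ppic (0.883), Loxl3 and Timp3, which were at most 3.86 FPKM in any library. Ranking by Spearman's rho instead shared 0 to 2 of the 3 genes for each member, so the names are not firm.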

How the data were processed

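RNA levels came from 2 tables of FPKM that the authors deposited. The submitters' processing notes name TopHat, Cuffdiff and the mouse build mm9, versions not given in the sources used here. Total FPKM per library ran from 365118 to 557183 for BMDM and from 337994 to 464812 for TAM. The 4 libraries for 5-hydroxymethylcytosine were not analysed here. The genotype of the injected tumour line is not reported here.

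Values were tested as log2(FPKM + 1) with limma 3.58.1 in R 4.3.3, with a trend of variance on level. A gene was tested when at least 2 BMDM or 4 TAM libraries reached 1 FPKM. The BMDM libraries were fitted as 6 groups, the TAM libraries separately. Benjamini-Hochberg adjustment ran over every gene tested in each of 13 comparisons, at 0.05. The method was tested on simulated data. The text names all 10 members, the 3 genes most like each, and other pathway genes that passed with a log2 change of at least 1 under IL4 in wild type or passed between genotypes. Ptprc, Il4, Il13, Il13ra2, Il7r, Tyk2 and the IL4 response genes were picked for mention once their values were known. The same holds for the other pathway genes set beside the ratio in TAM. The members and lists were chosen with earlier results of these data known. Alternatives were the pseudocount, the filter, 2 rescalings, the libraries fitted, a replicate block and leaving out each library.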

Additional observations from a re-analysis of the deposited data

Results flagged for a closer look

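In groups of 4 TAM libraries, 6 of 22 sets of values had 1 library whose gap to its nearest neighbour, divided by the range of the group, exceeded Dixon's critical value at the 95% level. Chance alone gives about 1 in 20 such sets. In labelled knockout TAM these were Il4ra in library 5, at 76.7 FPKM against 69.5 to 70.2 in the others, and Stat6 in library 6, at 41.7 FPKM against 50.2 to 51.4. The log2 ratio of Il2rg to Il13ra1 in labelled knockout library 3, at 2.15, was the lowest of its group by the same measure. Library 5 is the shallowest TAM library. In wild-type TAM they were Il2rg in library 8, at 30.1 FPKM against 124 to 165, Jak3 in library 2, at 6.26 FPKM against 9.03 to 9.49, and Socs3 in library 2, at 232 FPKM against 114 to 127. Library 8 also holds the highest fibroblast marker sum and library 2 the highest neutrophil marker sum, and their part in these values was not tested.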

How the results depend on the processing

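Over 130 pairs of a gene and a comparison, 2475 alternative values were computed: 2393 kept their side of the threshold, 46 lost a call, 36 gained one and 0 called values reversed. In 73 cases the sign changed with no call on either side. The counts of the 10 genes moved as follows. Requiring 1 FPKM in every library leaves Il13ra1, Socs1, Socs2 and Cish untested and so left 1 call at 10 h and 3 at 24 h in each genotype. For 24 against 10 h, median-of-ratios scaling gave 5 in each genotype, quantile normalization 5 in the labelled knockout and only the compared libraries 7 there. With no filter 0 passed between genotypes at 10 h. Leaving out 1 library gave 1 to 6 for 24 against 10 h in the labelled knockout, 0 to 1 between genotypes at 10 h and at 24 h, 0 to 2 over the times, and 0.785 to 1.43 for the log2 ratio difference in TAM. The cause of these moves, other than for the stricter filter, was not tested.

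With the replicate number as a block, the counts were 5 and 7 for IL4 at 10 and 24 h in each genotype, and it changed no call of these genes. Deviations of same-numbered libraries correlated between −0.141 and 0.149 over 15 pairs of groups, with 5 over 0.1. TAM numbers are not shared between genotypes.

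Over all settings, leaving out a library among them, the count of all genes called ran from 90 to 1383 between genotypes at 0 h, 93 to 604 at 10 h and 44 to 1486 at 24 h, 8 to 1169 for the interaction at 24 h, and 1 to 22 in TAM. The limits 604 and 44 come from fitting only the compared libraries and 8 from requiring 1 FPKM in every library, the others from leaving out a library, so the background shares move likewise. FPKM give no read counts, so differences of genes under 1 FPKM cannot be set against counting error.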

Other observations

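Il4, the ligand itself, was named after its values were seen. It had 0 to 0.461 FPKM in labelled knockout TAM and 0.959 to 2.75 in wild-type TAM, without overlap, and was too low to be tested. Summed markers of eosinophils, basophils and mast cells were 0.353 to 0.740 FPKM in labelled knockout TAM and 1.36 to 10.6 in wild type, also without overlap, and their part in the Il4 level was not tested. In BMDM Il4 was at most 0.811 FPKM.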
